A study of Mus musculus with 18 samples.

Results

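Kupffer cells are the resident macrophages of the liver sinusoids. Expression was followed for 36 genes that mark them or other myeloid cells, of 28442 genes in the deposited table, in livers and advanced tumors of Alb-R26Met mice. The genes were taken by symbol from a list, and all 36 were found. They comprise 5 resident Kupffer genes (Clec4f, Vsig4, Timd4, Cd5l, Marco), 16 general macrophage genes, 7 pan-myeloid genes and 8 genes of recruited or activated myeloid cells. The 18 bulk RNA-seq samples came from 17 male mice, 6 non-tumoral livers from mice aged 52 to 71 weeks that had developed no tumor, and 12 advanced tumors from mice aged 49 to 72 weeks. All mice carried the same alleles: Alb-Cre, active in hepatocytes, removes a stop cassette from R26stopMet, so that Met is expressed from Rosa26, on an F1 background of C57BL/6JRj and 129S2/SvPasOrlRj. No liver without the transgene was among the samples. Tumors 11 and 12 came from 1 mouse, and the names of 2 livers and 7 tumors carry the tag E19, those of 4 livers and 5 tumors the tag E20.

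Kupffer cells settle in the liver before birth, renew locally and take up particles, complement-coated microbes and dying cells from portal blood. Macrophages from monocytes that enter the liver share general macrophage genes with them, such as those of the C1q chains and the receptor Csf1r. In such macrophages Clec4f and Timd4 are gained late or not at all. Tissue RNA counts all of these cells together, so fewer cells of a type and less RNA of a gene per cell cannot be told apart in any of the values given here.

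The study calls the deposited values raw counts. They were read here as TPM rounded to whole numbers, a share of transcripts corrected for length, since its methods normalize to TPM and the totals were nearly equal. They summed to between 835144 and 907513 per sample. Most members were low: 16 members were at 0 in tumor 2, and a value of 1 or 2 has little resolution. Tumor 2 stood apart from every other sample, since the single gene Siglece made up 82.9% of its total against 17.9% to 53.4% elsewhere. Only 8718 genes were above 0 in tumor 2. The value of Siglece exceeded that of Alb in every sample, at 150854 to 700431 against 6050 to 53033. Whether it stands for RNA of that gene was not tested. For comparisons the values were divided by a scaling factor per sample, which turned a value of 1 into 5.14 in tumor 2 and into 0.70 to 1.27 in the others. Liver 1 also stood apart in several members, as given below. Hepatocyte markers summed to 38725 to 53405 in livers and 35374 to 73363 in tumors after scaling, and pan-leukocyte markers to 10.3 to 25.7 and 5.14 to 47.9.

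The resident genes Clec4f and Marco and the macrophage genes Cd163 and Gpnmb fell in tumors, whereas Cd14 and Cybb rose. Of the 36 members 31 passed the filter on low values (values of 1 or more after scaling in 6 samples or more), and Timd4, Fcgr1, Ly6c2, Itgam and S100a9 did not. With limma on log2 values and Benjamini-Hochberg adjustment over all 11708 genes tested, 6 members passed an adjusted p of 0.05, 4 lower and 2 higher in tumors. That is 19.4% of the members tested, beside 19% of all genes tested (9.28% lower and 9.77% higher). The share of members that differed was thus close to that in the whole table, and nothing is read from it about the list. The calls covered 2 of 4 resident genes tested, 2 of 15 general macrophage genes, 1 of 7 pan-myeloid genes and 1 of 5 recruited or activated genes. With liver 1 and tumor 2 left out, 7 members passed, the same 6 and Mertk, beside 31.1% of all genes. The median log2 fold change, tumors minus livers, was -1.20 over the 4 resident genes, -0.26 over the general macrophage genes, -0.07 over the pan-myeloid genes and -0.17 over the recruited or activated genes, beside -0.06 over all genes tested. With liver 1 and tumor 2 left out these medians were -0.88, -0.15, 0.13 and 0.10, beside -0.01 over all genes. A test of the difference between these groups of genes was not made. No tested member separated all tumors from all livers, against 3.16% of all genes tested.

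**Figure D1:**
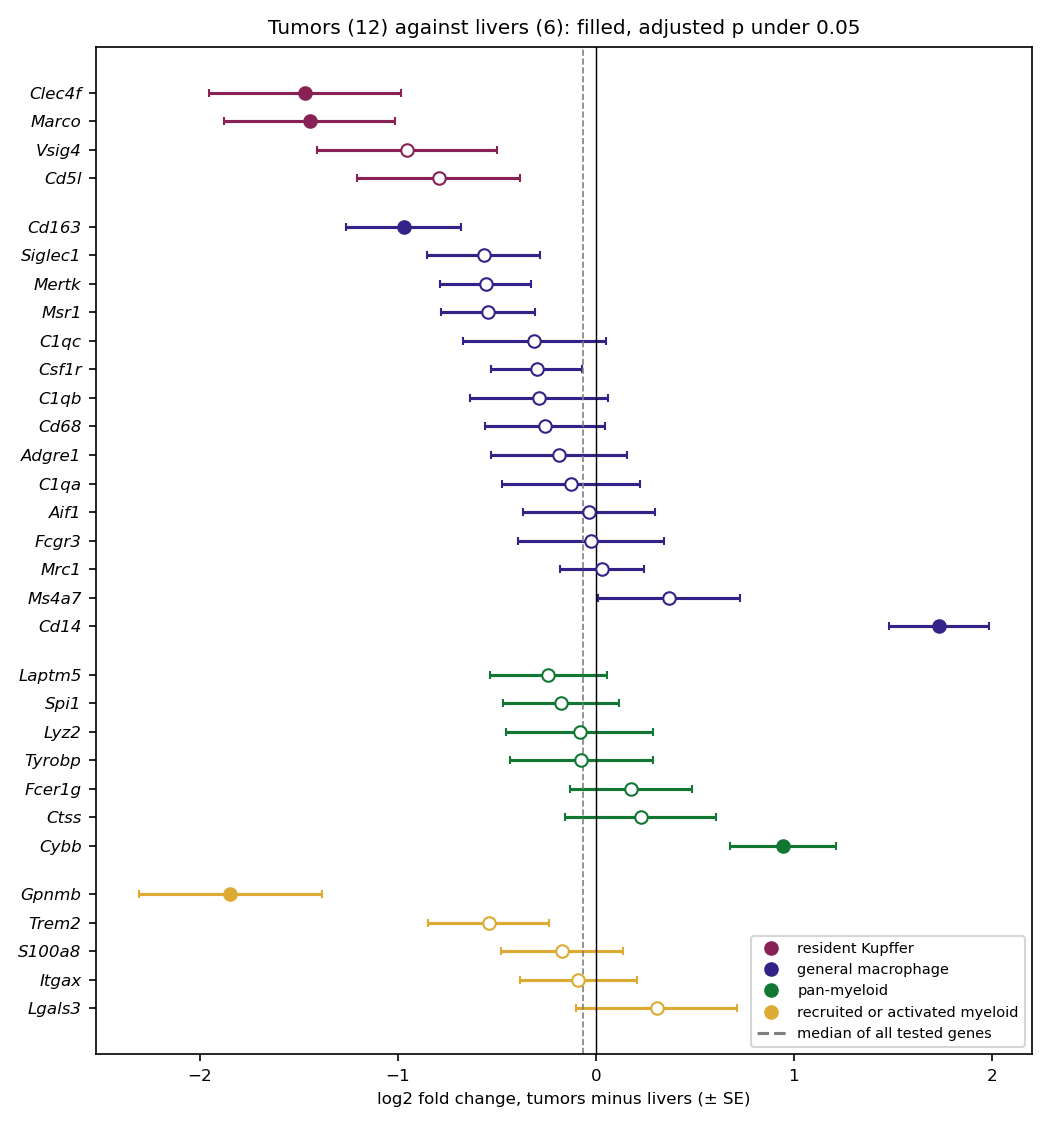
Each point is the log2 fold change of a tested gene (12 tumors minus 6 livers, on the log2(scaled TPM + 1) scale) with its standard error, by group, filled where the adjusted p was under 0.05. All 4 resident genes lie left of the dashed median of all genes, while the other groups spread to both sides of it, from Gpnmb at -1.85 to Cd14 at 1.73.

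The promoters of 3 members that differed are printed for reference, since they stand for the directions seen: Clec4f, the most specific Kupffer gene of the list, Gpnmb, the activated gene that fell furthest, and Cybb, which rose. Each window runs from 250 bases before to 50 bases after a RefSeq gene start on GRCm38.p6, 5′ to 3′ on the gene's strand, and capitals mark the AP-1 letters TGANTCA.
Clec4f (chr6:83656067-83656366, minus strand): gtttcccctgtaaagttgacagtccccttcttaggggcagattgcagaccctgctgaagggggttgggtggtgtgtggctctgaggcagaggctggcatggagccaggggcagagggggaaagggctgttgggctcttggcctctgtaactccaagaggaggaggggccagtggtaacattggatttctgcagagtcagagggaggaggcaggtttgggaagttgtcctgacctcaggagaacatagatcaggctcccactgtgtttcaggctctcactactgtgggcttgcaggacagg
Gpnmb (chr6:49036268-49036567, plus strand): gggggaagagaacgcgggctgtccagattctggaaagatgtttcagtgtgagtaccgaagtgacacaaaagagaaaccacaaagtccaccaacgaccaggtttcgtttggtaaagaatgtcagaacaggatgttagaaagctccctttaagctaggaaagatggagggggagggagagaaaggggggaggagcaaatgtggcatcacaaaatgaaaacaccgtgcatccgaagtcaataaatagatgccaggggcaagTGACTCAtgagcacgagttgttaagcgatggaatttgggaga
Cybb (chrX:9469275-9469574, minus strand): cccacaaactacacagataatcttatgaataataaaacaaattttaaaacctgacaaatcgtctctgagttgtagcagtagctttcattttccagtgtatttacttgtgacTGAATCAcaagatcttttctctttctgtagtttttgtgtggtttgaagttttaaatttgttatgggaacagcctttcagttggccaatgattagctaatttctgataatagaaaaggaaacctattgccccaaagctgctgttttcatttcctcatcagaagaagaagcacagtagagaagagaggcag

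Promoter windows were found for 28 of the 36 members. Letters of myeloid transcription factors were searched on both strands, counting any window with at least 1 match. The AP-1 letters were present in 7.81% of all 32851 windows and in windows of 6 members, Cd68, Cybb, Gpnmb, Itgax, Ms4a7 and Trem2. In Gpnmb they begin 8 bases after the start and in Cybb 139 bases before it. The Cybb window lies within the span that RefSeq gives the gene (chromosome X, 9435252 to 9487766). The PU.1 letters GAGGAAGT, in 3.20% of all windows, were found for C1qc, Ctss, Ly6c2 and S100a8. The C/EBP letters TTGCNNAA, in 10.8%, were found for Cd68, Fcgr3, S100a9 and Trem2, and the palindrome TTGCGCAA, a special case of them, in 0.183% of all windows and for no member. Among the resident genes, the windows of Clec4f, Vsig4, Timd4, Cd5l and Marco held none of these letters. Some genes, such as Ly6c2 and Fcgr3, have more than 1 window, so a count of members cannot be set against a share of windows. These are matches of letters only.

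Clec4f (chromosome 6, 83644542 to 83656116), a C-type lectin that in mice is made almost exclusively by Kupffer cells, was deposited at 13, 16, 16, 16, 34 and 19 TPM in livers 1 to 6. In tumors 1 to 12 it was at 2, 2, 11, 10, 17, 8, 5, 18, 4, 0, 1 and 11 TPM. Liver 5 was the highest of all samples, and tumors 5 and 8 reached the range of the livers while tumors 1, 2, 9, 10 and 11 were at 4 TPM or less. After scaling, Clec4f averaged 18.1 ± 10.01 in livers (SD, n = 6) and 7.14 ± 4.65 in tumors (SD, n = 12), all 12 tumors were below the median of the livers and 7 were below the lowest liver. The log2 fold change was -1.47 (SE 0.48, limma adjusted p = 0.037). This call was near its limit: with single samples left out the fold change ranged from -1.62 to -1.23, and the adjusted p passed the threshold in 10 of 18 cases. It did not pass without any one of livers 2 to 6 or of tumors 1, 9 and 11, and was highest without liver 5 (-1.24, adjusted p = 0.10). The call was also lost with a pseudocount of 0.5 or 0.1 (adjusted p = 0.053 and 0.11) and, narrowly, with the tag as covariate (-1.44, adjusted p = 0.050). The fold change was -2.26 within E19 samples (adjusted p = 0.14) and -0.86 within E20 samples (adjusted p = 0.34).

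Marco (chromosome 1), a scavenger receptor for bacteria and particles, was at 32 TPM in liver 1 and at 1 to 3 TPM in the other 5 livers. It was at 0 in 7 of 12 tumors, at 1 in 4 and at 4 TPM in tumor 5. Liver 1 was thus far above all other samples, and the 5 other livers overlapped the tumors. The log2 fold change was -1.44 (SE 0.43, adjusted p = 0.022), and without liver 1 it was -0.91 (adjusted p = 0.045).

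Vsig4 and Cd5l, the other resident genes tested, were lower in tumors on average without passing the threshold. Vsig4 (chromosome X) encodes a receptor through which Kupffer cells bind complement-coated microbes, and was deposited at 5, 4, 5, 5, 11 and 9 TPM in livers 1 to 6. In tumors 1 to 12 it was at 2, 0, 6, 5, 9, 4, 2, 7, 6, 0, 0 and 5 TPM. Tumors 2, 10 and 11 had none, while 5 of 12 tumors were above the median of the livers after scaling (log2 fold change -0.95, SE 0.45, adjusted p = 0.16). Cd5l (chromosome 3) encodes a protein that macrophages secrete into plasma. It was at 22, 12, 16, 18, 40 and 26 TPM in livers 1 to 6 and at 5, 2, 14, 12, 49, 13, 11, 25, 16, 10, 1 and 14 TPM in tumors 1 to 12. Tumor 5 was the highest of all samples as deposited and tumor 11 the lowest (log2 fold change -0.79, SE 0.41, adjusted p = 0.20). Timd4 (chromosome 11), a receptor for phosphatidylserine on dying cells, was at 1 or 2 TPM in every liver and at 0 in 6 tumors and 1 TPM in the other 6. It was too low to be tested, and with the filter on low values removed its log2 fold change was -0.68 (adjusted p = 0.033).

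**Figure D2:**
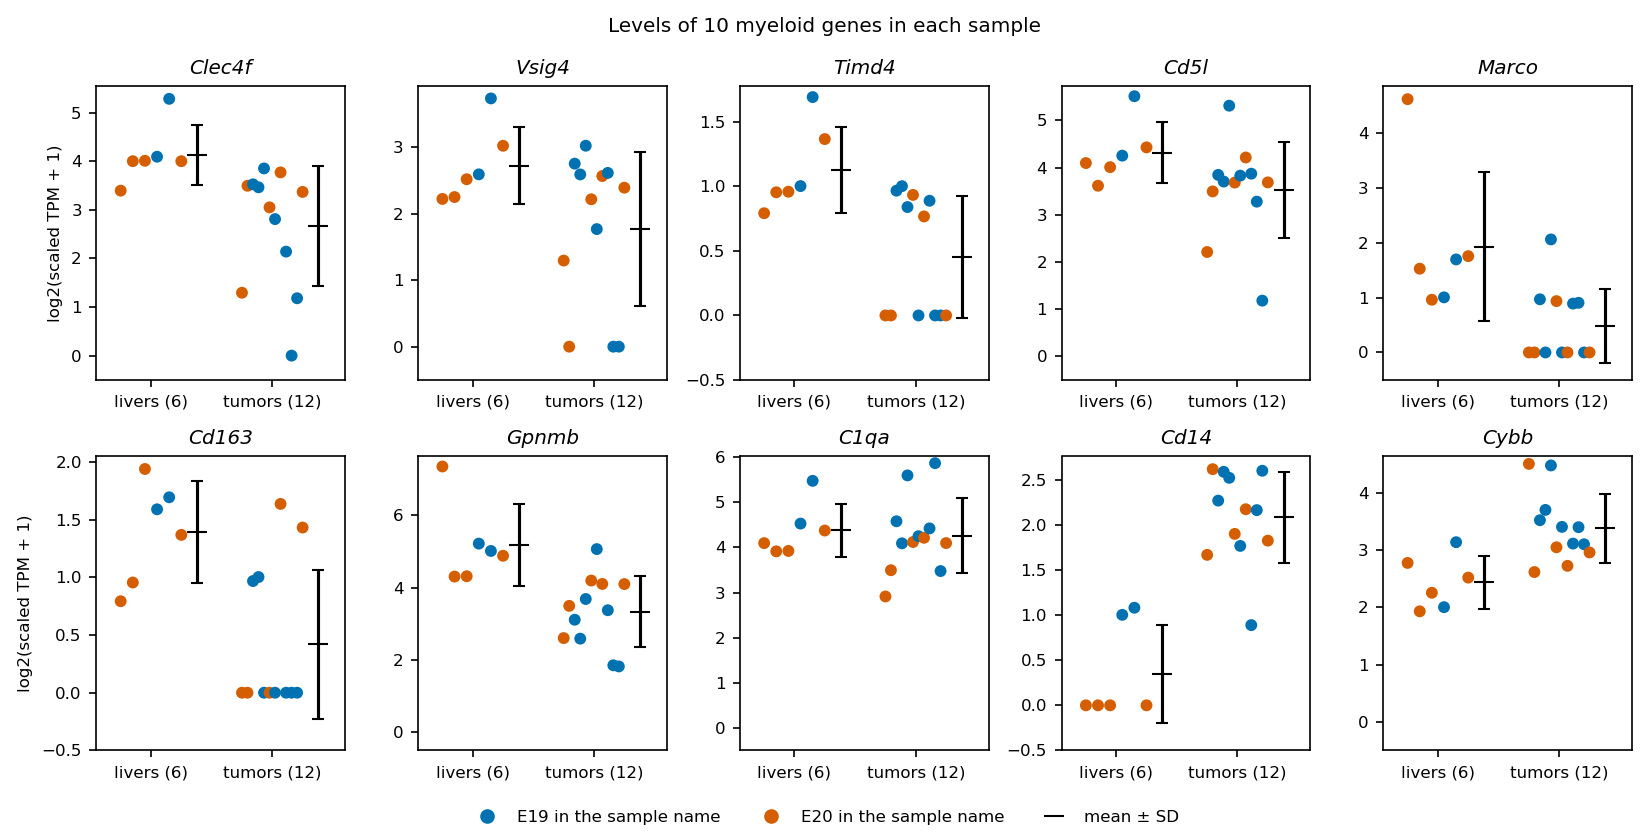
Each point is 1 sample, with log2(scaled TPM + 1) on the vertical axis, colored by the tag in the sample name, and the bars give mean ± SD of 6 livers and 12 tumors. The top row holds the 5 resident genes and the bottom row Cd163, Gpnmb, C1qa, Cd14 and Cybb. For C1qa the tumors reach both below and above the livers. For Cd14 11 of 12 tumors lie above every liver, among them tumor 2 with 1 TPM as deposited. For Gpnmb 11 of 12 tumors lie below every liver.

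Other genes that are enriched in Kupffer cells were taken from a separate list of 13. Of 12 tested, 1 was lower and 1 higher in tumors, with a median log2 fold change of -0.50. The lower one was Fcna, a ficolin of the lectin complement pathway, at 12 to 23 TPM in livers and 1 to 9 TPM in tumors without overlap (log2 fold change -1.55, SE 0.31, adjusted p = 0.0011). The higher one was Cd81, a tetraspanin that many cell types express (0.54, adjusted p = 0.015). Of 13 macrophage transcription factors 11 were tested and 2 fell. Id3, which Kupffer cells need for their identity, was far above Clec4f in livers, at 54 to 210 TPM, and at 4 to 44 TPM in tumors, without overlap (log2 fold change -2.13). The other was Id1 (-1.20), which overlapped between the groups. Which cells of the tissue made the RNA of Id1 and Id3 was not tested. Of all genes tested, 9.28% were lower and 9.77% higher in tumors, and 3.16% did not overlap. Their median log2 fold change was -0.06. Nothing is read from the counts about either list.

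Among the general macrophage genes, neither the complement chains nor the growth factor receptor passed the threshold. C1qa, C1qb and C1qc lie side by side on chromosome 4, and their chains assemble into C1q, the first component of the classical complement pathway. C1qa was deposited at 22, 15, 15, 22, 39 and 25 TPM in livers 1 to 6 and at 9, 2, 24, 16, 60, 18, 15, 25, 24, 66, 8 and 19 TPM in tumors 1 to 12. The tumors reached both below and above the livers: scaled C1qa averaged 21.6 ± 11.2 in livers and 21.6 ± 15.3 in tumors (log2 fold change -0.13, SE 0.35, adjusted p = 0.85). C1qb (-0.29, adjusted p = 0.64) and C1qc (-0.31, adjusted p = 0.62) were close to it. Csf1r, the receptor for the macrophage growth factors Csf1 and Il34, was at 6 to 12 TPM in livers and 1 to 15 TPM in tumors (-0.30, SE 0.23, adjusted p = 0.42). Adgre1, which encodes the F4/80 antigen, was at 2 to 6 and 0 to 10 TPM (-0.19, adjusted p = 0.77), and Cd68, a lysosomal glycoprotein, at 5 to 30 and 1 to 26 TPM (-0.26, adjusted p = 0.63, and -0.01 without liver 1). The mannose receptor gene Mrc1, which sinusoidal endothelium also expresses, was at 5 to 8 and 2 to 11 TPM (0.03, adjusted p = 0.94).

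The remaining general genes, apart from Cd163 and Cd14, did not pass the threshold. Mertk, which binds dying cells through Gas6 and Pros1, had the lowest adjusted p of the members that were not called (-0.56, SE 0.23, adjusted p = 0.098), and 8 of 12 tumors were below the lowest liver. Without tumor 2 it passed (-0.64, adjusted p = 0.026). The scavenger receptor Msr1 had a fold change of -0.54 (adjusted p = 0.12) and the sialic acid receptor Siglec1 of -0.57 (adjusted p = 0.18). Fcgr3, an activating Fc receptor (-0.02), Aif1, an actin-binding protein of macrophages (-0.03), and Ms4a7 (0.37) had adjusted p-values of 0.53 to 0.97. Fcgr1, the high-affinity Fc receptor, never exceeded 1 TPM in livers or 3 TPM in tumors.

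Cd163, the receptor for haptoglobin-bound hemoglobin, was at 1 to 3 TPM in livers and at 0 in 8 of 12 tumors, and the highest tumor, tumor 8, had 3 TPM. Its log2 fold change was -0.97 (SE 0.29, adjusted p = 0.022). Leaving out liver 3, 4 or 5 ended that call, with adjusted p-values of 0.053 to 0.069.

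Cd14 moved the other way and was the clearest difference of the list. It encodes the co-receptor for bacterial lipopolysaccharide and is made by monocytes and macrophages, and by hepatocytes as well. It was deposited at 0, 0, 0, 1, 1 and 0 TPM in livers 1 to 6 and at 3, 1, 4, 5, 6, 3, 2, 5, 1, 4, 4 and 3 TPM in tumors 1 to 12. The highest livers, 4 and 5, equaled the lowest tumors, 2 and 9, at 1 TPM. After scaling, 11 of 12 tumors were above every liver, with means of 0.35 ± 0.55 in livers (SD, n = 6) and 3.46 ± 1.37 in tumors (SD, n = 12). Tumor 2 became the highest of them, since scaling turned its 1 TPM into 5.14. The log2 fold change was 1.73 (SE 0.25, adjusted p = 5.5e-05) and stayed between 1.67 and 1.88 with any single sample left out. The source of this RNA among the cells of the tissue was not tested.

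Pan-myeloid genes, which all macrophages, monocytes and neutrophils share to some extent, did not pass the threshold with the exception of Cybb. Lyz2, which encodes lysozyme, was the most abundant at 26 to 95 TPM in livers and 3 to 99 TPM in tumors (log2 fold change -0.08, adjusted p = 0.91). The signaling adaptors Tyrobp (-0.07) and Fcer1g (0.18), the protease gene Ctss (0.23), the lysosomal gene Laptm5 (-0.24) and Spi1, which encodes the transcription factor PU.1 (-0.18), had adjusted p-values of 0.64 to 0.92. Cybb encodes the catalytic subunit of the phagocyte oxidase and was deposited at 8, 3, 4, 3, 7 and 6 TPM in livers 1 to 6. It was at 30, 1, 11, 12, 27, 8, 8, 8, 9, 11, 6 and 8 TPM in tumors 1 to 12, highest in tumors 1 and 5. The log2 fold change was 0.95 (SE 0.27, adjusted p = 0.015), and all 12 tumors were above the median of the livers after scaling. Tumor 2 was among them only because scaling turned its 1 TPM into 5.14, against a scaled liver median of 4.26. On unscaled values, in which tumor 2 stayed at 1 TPM, the call was lost (0.82, adjusted p = 0.21). It was also just lost without liver 2 (0.84, adjusted p = 0.051), and held without tumor 2 (1.02, adjusted p = 0.0067). None of 5 further oxidase subunits in a separate list passed the threshold (median -0.13).

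Cybb did not go along with the other myeloid genes in every tumor. Tumor 1 had the highest Cybb of all samples as deposited, at 30 TPM, with C1qa at 9, Tyrobp at 4 and Clec4f at 2 TPM, each below every liver.

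Among the recruited or activated genes, Gpnmb fell and the other 4 tested did not pass the threshold. Gpnmb, a membrane glycoprotein that lipid-laden and scar-associated macrophages express strongly, was deposited at 221, 20, 20, 36, 28 and 36 TPM in livers 1 to 6. In tumors 1 to 12 it was at 7, 2, 8, 5, 15, 19, 27, 23, 11, 3, 2 and 19 TPM. Liver 1 was far above the rest, and after scaling all tumors but tumor 7 were below the lowest liver. The log2 fold change was -1.85 (SE 0.46, adjusted p = 0.0072), and without liver 1 it was -1.41. Trem2, a lipid receptor that signals through Tyrobp and marks the same activated macrophages, was at 8 TPM in liver 1, 1 to 3 TPM in the other livers and 0 to 3 TPM in tumors (-0.54, SE 0.31, adjusted p = 0.24). Without liver 1 it was -0.31. Lgals3, galectin-3, was at 5 to 40 TPM in livers and 1 to 76 TPM in tumors, highest in tumor 10 (0.31, adjusted p = 0.67, and 0.62 without liver 1).

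The markers of monocytes, neutrophils and dendritic cells in the list were at or near the lower limit of the table. Itgam, the integrin chain CD11b, was listed at 0 in all 6 livers and at 1 TPM in tumors 5, 6 and 10. Ly6c2, of classical monocytes, did not exceed 1 TPM in livers or 3 TPM in tumors, and its reads may be shared with the near-identical Ly6c1. The neutrophil genes S100a8 (0 to 4 TPM) and S100a9 (0 to 2 TPM) were highest in liver 1, and Itgax, the integrin chain CD11c, was at 0 to 5 TPM. S100a8 (-0.17, adjusted p = 0.77) and Itgax (-0.09, adjusted p = 0.88) did not pass the threshold.

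Related genes outside the list were counted in the same fit. Of 13 lipid-associated macrophage genes, all tested, 7 rose and none fell, led by Spp1 (4.45), Fabp5 (3.92) and Cd63 (3.57). Of all genes tested, 9.77% rose and 9.28% fell, which applies to each list here. After scaling, none of these 3 overlapped between tumors and livers, beside 3.16% of all genes tested that did not. As deposited, 2 of them did overlap: Fabp5 was at 4 to 126 TPM in livers and 21 to 556 TPM in tumors. Cd63 was at 3 to 27 and 13 to 145 TPM. For both, liver 1 was the highest liver and tumor 2 the lowest tumor. Gpnmb and Trem2, which are known from the same activated state, had fold changes of -1.85 and -0.54, and of -1.41 and -0.31 without liver 1. Spp1 was at 60 to 716 TPM in tumors against 5 to 14 TPM in livers, and hepatocytes or bile duct cells can express such genes too. Of 12 genes of efferocytosis and self-recognition 11 were tested, 4 rose and 1 fell, with Mfge8 (2.60), Sirpa (1.54) and Gas6 (1.09) leading. Of 13 genes for Csf1 and monocyte-attracting ligands 7 were tested and 2 rose, Ccl2 (1.11) and Cx3cl1 (1.01). None of 9 tested of 12 Fc receptor and DAP12 signaling genes, of 5 tested of 10 monocyte genes or of 6 tested of 12 dendritic cell genes passed the threshold. Of 12 neutrophil genes Lcn2 alone was tested and rose (3.43), which hepatocytes also make.

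Markers of other cell types were counted in the same way. None of 5 pan-leukocyte and of 5 sinusoidal endothelial genes passed the threshold. T cell, B cell, natural killer cell and mast cell genes were too low to be tested. Of 6 stellate cell and fibroblast genes Col1a1 (2.15) and Col3a1 (1.56) rose and 3 fell, led by Dcn (-1.30). Of 6 hepatocyte genes Apoa1 rose (0.91) and Cyp2e1 fell (-2.82). Of 4 biliary genes 1 was tested and did not pass the threshold, and of 4 proliferation genes 3 were tested and all 3 rose, led by Top2a (2.41). The part of these changes in the values of the myeloid genes was not tested.

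The balance of resident and other genes was then described in each sample, as the mean log2(scaled TPM + 1) of the 5 resident genes minus that of the other 31 members. It was 0.23, 0.46, 0.31, 0.20, 0.62 and 0.47 in livers 1 to 6. In tumors 1 to 12 it was -0.85, -0.37, -0.17, 0.08, -0.14, -0.26, -0.78, -0.08, -0.34, -2.34, -1.34 and -0.46. All 12 tumors were below the lowest liver, although tumor 4 and liver 4 were only 0.12 apart. The means were 0.38 ± 0.16 in livers and -0.59 ± 0.68 in tumors, a difference of -0.97. The tumors lay below all livers under every scaling and pseudocount tried, and 11 of 11 did so without liver 1 and tumor 2 together. No gene was left out in these checks. Marco, at 32 TPM in liver 1 and at 0 in 7 of 12 tumors, enters the mean of the 5 resident genes. The separation is therefore not shown to hold without Marco. Because the list mixes genes of very different levels, the balance is given as a description without a test.

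**Figure D3:**
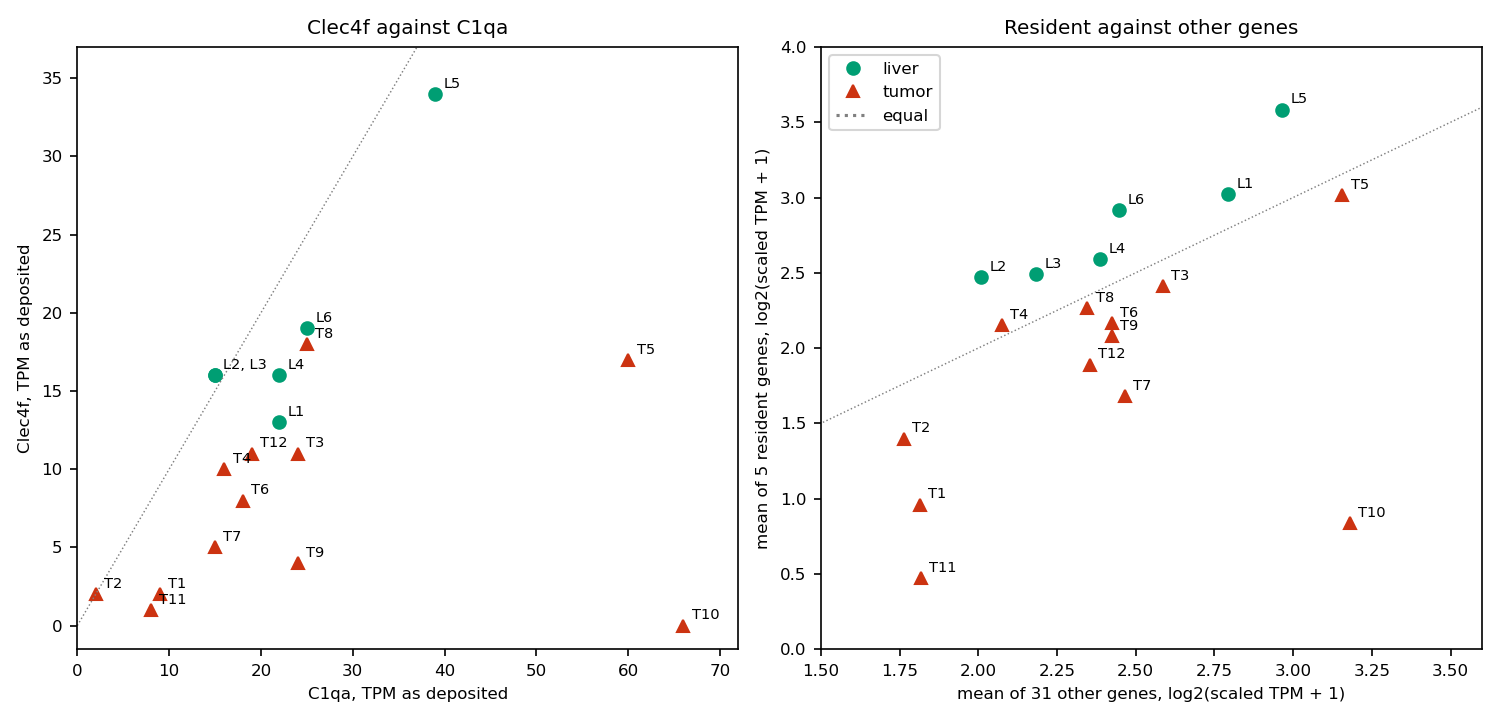
On the left, deposited TPM of Clec4f are plotted against C1qa, and on the right the mean log2(scaled TPM + 1) of 5 resident genes against that of the 31 others, with 1 point per sample, L for livers and T for tumors, and a dotted line of equality. On the right all 6 livers lie above the line and 11 of 12 tumors below it, with tumor 10 farthest from the line at -2.34.

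The ratio of Clec4f to C1qa within a sample does not depend on scaling. Clec4f was at 59.1%, 106.7%, 106.7%, 72.7%, 87.2% and 76.0% of C1qa in livers 1 to 6. In tumors 1 to 12 it was at 22.2%, 100.0%, 45.8%, 62.5%, 28.3%, 44.4%, 33.3%, 72%, 16.7%, 0%, 12.5% and 57.9%. Of 12 tumors 9 were below the lowest liver, and the exceptions were tumors 4, 8 and 2, of which tumor 2 has only 2 TPM of each gene.

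Some tumors stood out across the list. Tumors 5 and 10 held the highest scaled value among tumors for 22 of 36 members. In tumor 5 the resident genes were high as well, with Clec4f at 17, Vsig4 at 9 and Cd5l at 49 TPM beside C1qa at 60 TPM. In tumor 10 C1qa was at 66, C1qb at 80 and the activated gene Lgals3 at 76 TPM, each the highest of all samples, whereas Csf1r was at 10 TPM, Clec4f and Vsig4 were at 0 and Cd5l was at 10 TPM. That tumor also held the 4 mast cell genes at 7 to 21 TPM, which were at 0 or 1 TPM elsewhere. In tumor 11 all 5 resident genes were at 0 or 1 TPM and C1qa was at 8 TPM. The sinusoidal endothelial gene Clec4g was at 0 TPM in tumor 10 and 1 TPM in tumor 11, the lowest of all samples, and its part in the low resident genes of these tumors was not tested. Tumor 12, of the same mouse as tumor 11, had Clec4f at 11 and C1qa at 19 TPM.

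**Figure D4:**
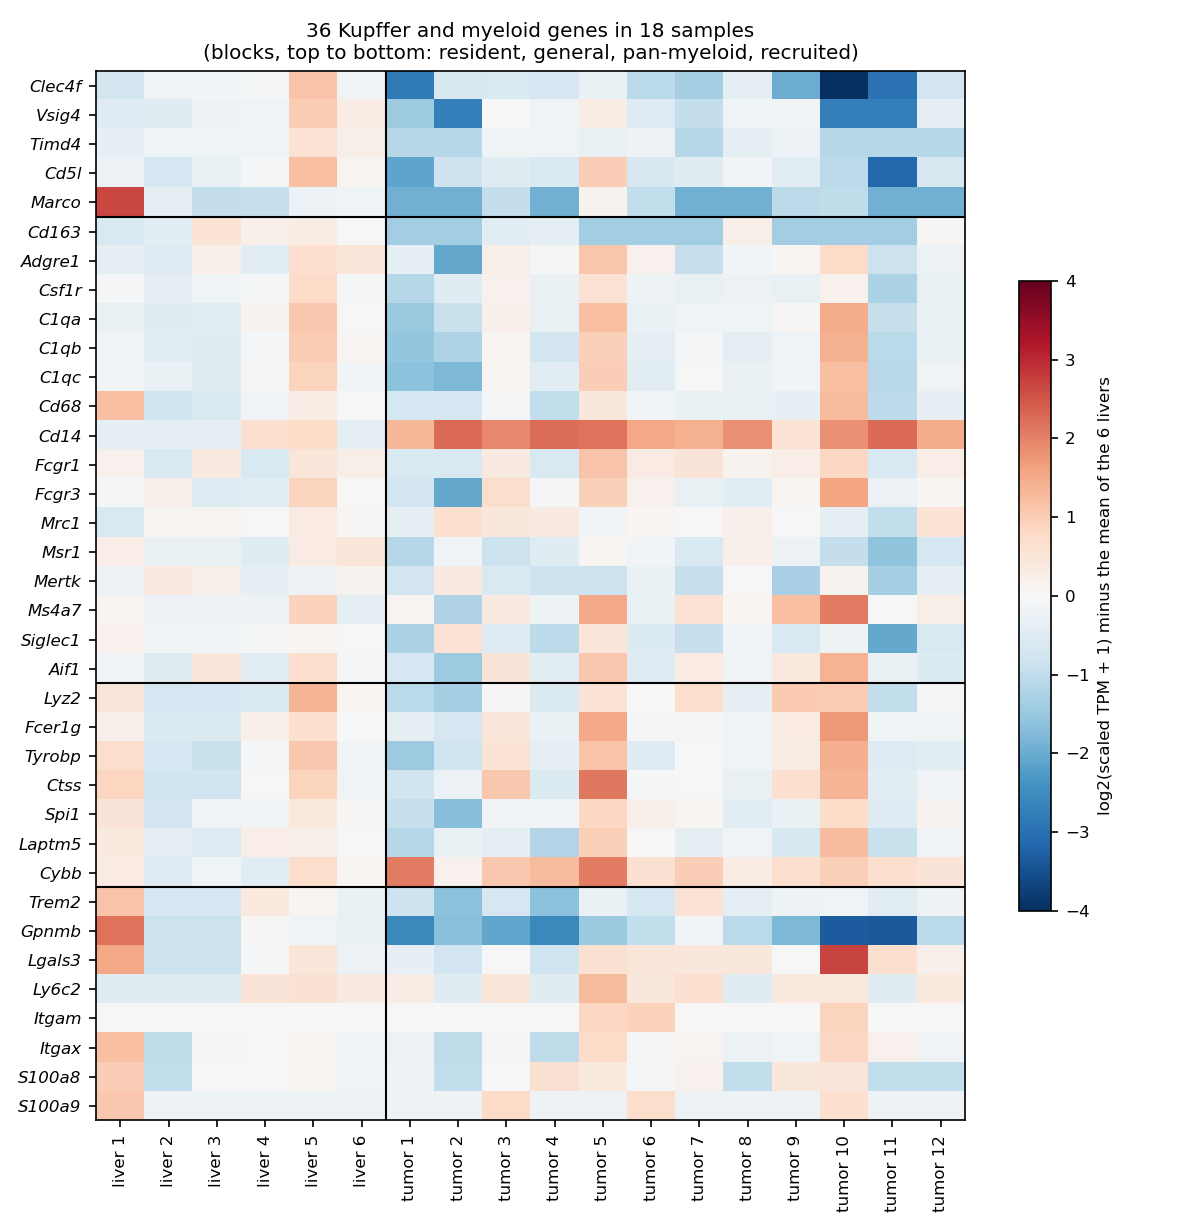
Colors give log2(scaled TPM + 1) of each of 36 genes minus the mean of the 6 livers, red for higher and blue for lower, in 6 livers and 12 tumors, with lines between groups of genes. The resident block at the top is blue in most tumors, the Cd14 row is red in all 12 tumors, and tumors 5 and 10 are red in every pan-myeloid row and most general rows, with Cd163 and Mrc1 blue in both and all resident rows blue in tumor 10.

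Across the 12 tumors 4 pairs of genes were correlated on log2 values, with two-sided permutation p-values from 100000 permutations. C1qa followed Csf1r (Pearson r = 0.87, permutation p = 0.00085, adjusted over 4 pairs 0.0034, Spearman rho = 0.85, p = 0.00102, adjusted 0.00408), and r was 0.87 without tumors 5 and 10, the farthest from the median of C1qa. Clec4f followed Cd5l (r = 0.67, permutation p = 0.0185, adjusted 0.037, rho = 0.72, p = 0.0107, adjusted 0.021), and r was 0.74 without tumors 10 and 11. The adjusted p of this pair passed 0.05 upward, to 0.051 to 0.14, without any one of tumors 1, 3, 5, 6, 7, 8 and 11. Across all 12 tumors no relation of Clec4f with C1qa was detected (r = -0.04, permutation p = 0.90, adjusted 0.90, rho = 0.19, p = 0.56, adjusted 0.56). This value rested on tumor 10, without which r was 0.63 and passed the threshold (permutation p adjusted over 4 pairs 0.047), and without tumors 10 and 11 r was 0.59 (permutation p = 0.091). C1qa and Trem2 gave r = 0.40 (permutation p = 0.19, adjusted 0.26) and rho = 0.65 (p = 0.0257, adjusted 0.034), and r was 0.36 without tumors 5 and 10. Within the 7 tumors tagged E19, r was 0.86 for C1qa with Csf1r, 0.63 for Clec4f with Cd5l, -0.12 for Clec4f with C1qa and 0.22 for C1qa with Trem2. The 5 tumors tagged E20 are under the minimum of 6 samples set for a correlation, so no values are given for them.

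The tag in the sample names was examined because it divided the table: among tumors, 13% of 11588 genes differed between E20 and E19 at an adjusted p under 0.05, and 31.4% at an unadjusted p under 0.05. Of 29 members tested in tumors, Aif1 alone passed (E20 minus E19, log2 -1.09, SE 0.32, adjusted p = 0.040), and 11 were at an unadjusted p under 0.05. Those 11 were C1qa, C1qc, Fcgr3, Ms4a7, Aif1, Lyz2, Fcer1g, Tyrobp, Ctss and S100a8, lower in E20, and Mertk, higher in E20. None of the 3 resident genes tested was among them. The call for Aif1 held when tumor 4, 8 or 11 was left out and was lost without any one of the other 9 (adjusted p up to 0.086). The difference between tumors and livers did not depend on the tag at the threshold for any member, or for any of the 11708 genes tested, of which 348 (2.97%) had an unadjusted p under 0.05. Within E19 samples the 4 tested resident genes had a median log2 fold change of -1.32 and within E20 samples of -0.83. Taken alone, E19 samples called Cd163 as the single member, beside 12.8% of all genes, and E20 samples called Cd14, beside 4.55% of all genes. The balance of resident and other genes put all 7 E19 tumors below both E19 livers and all 5 E20 tumors below the 4 E20 livers.

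Age at sampling, from 49 to 72 weeks in tumors, was not related to any member at the threshold across the 12 tumors. In limma no gene passed an adjusted p of 0.05, 137 of 11588 genes (1.18%) were at an unadjusted p under 0.05, and of 29 members tested none was.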

How the data were processed

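Poly-A RNA of 6 livers and 12 tumors was sequenced paired end, and the authors used GRCm38 and Salmon to obtain TPM. The deposited table, which the study calls raw counts, is a whole-number score, taken here to be rounded TPM. The reads behind a value are not kept, so no counting intervals are given. The planned test suits such values and was used as planned. The 8 lines with an extra separator were read accordingly.

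Each sample was scaled by trimmed means (30% of log ratios and 5% of mean levels trimmed), filtered at 1 in 6 samples, or in 4 tumors within tumors, and limma 3.58.1 (R 4.3.3) with a trend was fitted to log2(value + 1), Benjamini-Hochberg adjusted over all genes. The code was tested on simulated data. Correlations used numpy 2.4.6 and figures matplotlib 3.10.9. GEO labels gave the groups, and nothing further says how samples were drawn within a tissue. The p-values therefore set differences against the spread between these samples. The main fit counted tumors 11 and 12, of 1 mouse, as separate samples. With these 2 averaged, 6 members were called as well. Ages are those of the study's mouse table, matched for tumors 3 and 10 by tumor number and tag.

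Members and lists were chosen with earlier results of these data known. All members are reported, and of every other list at most 3 genes that passed, by size of fold change. A planned gene and a planned motif are not reported here. Clec4g, Siglece, Alb, Mmp12, Lpl, Cxcl1 and Cd74 were named after their values were seen. Positions are RefSeq on GRCm38.p6. Alternatives covered scaling, pseudocount, filter, covariates, weights, the average of tumors 11 and 12, each sample left out, each tag alone and a block by number. Leaving out liver 1 and tumor 2 together was added after seeing the data.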

Additional observations from a re-analysis of the deposited data

Results flagged for a closer look

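Among the 6 livers, 13 of 36 measures had 1 liver set far from the rest by Dixon's ratio of its gap to the whole range. The measures were 35 members with any spread among livers and the balance of resident and other genes. The limit of 0.625 is reached in about 1 of 20 groups of normally distributed values. The values here are rounded and not on a log scale, and genes vary together, so the count cannot be set against chance. Where all other livers are at 0, as for S100a9, the ratio can only be 1. The ratio was taken on scaled values, and the deposited TPM are given beside it.

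Liver 1 was set apart in 6 genes. These were Marco (ratio 0.937, 32 TPM against 1 to 3 in the other livers), Gpnmb (ratio 0.878, 221 against 20 to 36), Itgax (ratio 0.695, 5 against 0 to 1), Lgals3 (ratio 0.646, 40 against 5 to 12), Cd68 (ratio 0.625, at the limit, 30 against 5 to 11) and S100a9 (ratio 1, 2 against 0). Outside the list, and named after the values were seen, liver 1 also held 28 TPM of Mmp12 and 80 TPM of Lpl, against 1 to 7 TPM of either gene in the other livers. Genes of other lists, also picked after the values were seen, differed there as well. Lcn2 was at 340 TPM against 11 to 64 and Cxcl1 at 63 against 2 to 5, whereas Cd74 was at 9 against 25 to 140. Clec4f of liver 1, at 13 TPM, was the least of all livers as deposited.

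Liver 5 was set apart in 7 genes. These were Csf1r (ratio 0.782, 12 TPM against 6 to 10), Clec4f (ratio 0.770, 34 against 13 to 19), C1qb (ratio 0.742, 47 against 19 to 34), Ms4a7 (ratio 0.737, 3 against 1 to 2), C1qa (ratio 0.728, 39 against 15 to 25), Cd5l (ratio 0.722, 40 against 12 to 26) and C1qc (ratio 0.722, 35 against 15 to 26). Resident and general genes were thus high together in that liver, and Gpnmb was at 28 TPM there.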

How the results depend on the processing

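The number of members that differed between tumors and livers was 6, ranged from 4 to 7 with each sample left out, and was 1 within E19 or within E20 samples alone. The members other than resident gave 4 calls, 3 to 5 with each sample left out and 1 within either tag. The number of resident genes called lower was 2. It was 1 to 2 with each sample left out, 1 under median of ratios, the total without the most abundant gene, a pseudocount of 0.5 or 0.1, the stricter filter of 2 or the tag as covariate, and 0 within E19 or E20 samples alone. In those settings Clec4f or Marco missed the threshold or Marco was too low to be tested. Among all genes 2230 were called, 1708 to 3114 with each sample left out, 1341 without scaling, 4702 with sample quality weights, 533 within E20 samples and 3640 without liver 1 and tumor 2. Of 1816 calls with the total without the most abundant gene, 1132 were higher and 684 lower, against 1144 and 1086. Without scaling the median log2 fold change of all genes was -0.18. Single members gave 1045 values under alternatives, of which 1012 stayed on the same side of the threshold, 29 lost a call, 4 gained one and none reversed a call. The sign of 14 members that were called in neither fit changed in 63 of these, with values up to 0.31 in size.

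Livers and tumors 1 to 6 share replicate numbers in the names. Deviations of same-numbered samples correlated between -0.10 and 0.42, over 0.1 in 3 of 6 pairs, so the numbers were not taken as pairs. With a replicate block 1551 genes, 5 members and 1 resident gene were called, and in the same 12 samples without the block 1422 genes, 4 members and 0 resident genes.

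The balance of resident and other genes differed by -0.97 between tumors and livers, by -1.03 to -0.81 with each sample left out, and by -1.82 with a pseudocount of 0.1. The dependence on the tag gave 0 genes, 9 with no filter and 0 to 1 with each sample left out, and the relation to age gave 0 genes and 1 without scaling. Between tags within tumors 1510 genes were called, 906 to 1834 with each tumor left out and 778 without scaling, of which 773 were higher in E20, against 1134 of 1510, and with the total without the most abundant gene 1153 higher and 46 lower. Of the members 1 was called, 0 to 3 with each tumor left out, and 0 without scaling, with the total without the most abundant gene, a pseudocount of 0.1 or age as covariate. For Clec4f with Cd5l r was 0.67, 0.62 to 0.84 with each tumor left out, 0.64 with the total without the most abundant gene, 0.63 and 0.52 with pseudocounts of 0.5 and 0.1, and 0.61 with tumors 11 and 12 averaged, the latter 4 past the threshold no longer. Clec4f with C1qa turned from -0.04 to 0.63 without tumor 10 (permutation adjusted p = 0.047), and ranged from -0.27 to 0.63 with each tumor left out. C1qa with Csf1r stayed at 0.83 to 0.92. C1qa with Trem2 was 0.30 to 0.49 with each tumor left out and 0.62 without scaling, where it passed. Beyond the settings whose own construction shows it, the cause of these changes was not tested. Rounded values of 0 to 3 TPM limit Timd4, Marco, Cd163, Cd14, Ly6c2, Itgam and S100a9 most.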
